A study of Mus musculus with 6 samples.

Results

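The Myc, Max and Mxd network was examined as 10 genes, *Myc*, *Mycn*, *Mycl*, *Max*, *Mxd1*, *Mxd4*, *Mxi1*, *Mnt*, *Mlx* and *Fbxw7*, each found once by its symbol among the 46959 rows of the deposited table. Of these, 9 were expressed enough to be tested and *Mycl* was not. RNA came from haematopoietic stem cells (HSCs) of bone marrow, with 3 control and 3 MaeaCsf1r-Cre libraries, and about 2000 cells pooled from a pair of mice went into each library. The labels give the mice as 8 weeks old, and the study's methods give a wider range of young adult ages that includes this one. By those methods mice of both sexes were used with littermate controls, and the *Csf1r*-Cre line had been backcrossed to C57BL/6. In MaeaCsf1r-Cre mice the floxed *Maea* gene, which encodes a subunit of an E3 ubiquitin ligase, is deleted by a Cre under the *Csf1r* promoter. *Csf1r* is best known as a gene of monocytes and macrophages, so the Cre is not specific to HSCs. The labels name the other group only as control, and do not say whether those littermates carried the Cre or floxed alleles.

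Myc proteins bind DNA only as partners of Max, and such dimers recognise the E-box, a short palindrome of DNA, at the promoters of genes for growth and ribosome production. Mxd1, Mxi1, Mxd4 and Mnt compete for Max and bring the Sin3 corepressor to the same sites, while Mlx is the Max-like partner of a parallel branch that responds to glucose. Fbxw7 is the substrate receptor of an SCF ubiquitin ligase that marks Myc proteins for the proteasome, and in blood-forming tissue both Myc activity and Fbxw7 are known to influence whether stem cells stay quiescent.

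No member of the network passed the test between the groups. The largest differences were in *Mxd4* and *Mycn*, both lower in MaeaCsf1r-Cre HSCs, by 35.4% and 29.2% of the control mean. *Myc* itself, *Max* and *Fbxw7* had overlapping groups and log2 fold changes of -0.07, 0.04 and 0.03, each smaller than its standard error (SE). Each gene was compared on log2(CPM + 1), where CPM is the read count scaled to a fixed total per library, with limma's moderated test and Benjamini-Hochberg adjustment over the 12955 genes with at least 1 CPM in at least 3 libraries. Of all genes tested 0.00772% had an adjusted p under 0.05, which was 1 gene, and 0 of the 9 members did (limma's adjusted p from 0.967 to 0.990). At an unadjusted p under 0.05 there was 1 member, *Mxd4*, where 3.99% of all genes met that limit (3.19% lower and 0.803% higher). With the replicate number as a block these were 2 members, *Mxd4* and *Mycn*, against 13.9% of all genes (10.8% lower and 3.11% higher), and limma's adjusted p was 0.217 to 0.953. By group mean 5 members were lower and 4 higher, with a median log2 fold change of -0.07, beside -0.06 over all genes tested.

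The E-box is the letters CACGTG, which read alike on both strands, and RefSeq's promoters of GRCm38.p6 (from 250 bases before to 50 bases after each start) were searched for it. Of the 10 members 9 matched by symbol, with 13 promoters in all, and *Myc* had none there. The letters were found in the promoters of 4 members, *Mxd4*, *Mnt*, *Mlx* and *Max*, while 7.15% of all 32851 promoters and 10.1% of those of tested genes hold them. No match was present in these windows for *Mycn*, *Mycl*, *Mxd1*, *Mxi1* or *Fbxw7*. The matches are shown because Myc, Mxd and Mlx dimers all recognise these letters. The E-box is in capitals and each sequence is read 5′ to 3′ on the strand of its gene. Distances are counted from the first base of the E-box, and the E-box of *Max* spans the start. A match is a description of the sequence and no evidence of binding in these cells.
Mxd4, chr5:34187909-34187944, minus strand, E-box 219 bases before the start: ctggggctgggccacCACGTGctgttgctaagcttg
Mnt, chr11:74830786-74830821, plus strand, E-box 123 bases before the start: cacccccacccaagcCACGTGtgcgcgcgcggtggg
Mlx, chr11:101087235-101087270, plus strand, E-box 40 bases before the start: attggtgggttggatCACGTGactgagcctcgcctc
Max, chr12:76962231-76962266, minus strand, E-box 3 bases before the start: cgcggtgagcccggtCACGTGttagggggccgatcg
The whole stretch before the *Mxd4* start is given too, since *Mxd4* had the largest difference of the members.
Mxd4, chr5:34187711-34187960, minus strand: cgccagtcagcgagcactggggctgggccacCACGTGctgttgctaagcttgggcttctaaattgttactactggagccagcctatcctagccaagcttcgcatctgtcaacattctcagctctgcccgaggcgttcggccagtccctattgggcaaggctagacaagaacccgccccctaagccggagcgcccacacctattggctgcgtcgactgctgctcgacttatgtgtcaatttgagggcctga

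The libraries differed in more than genotype. Depth, read from the smallest steps in each column, was 32957000 to 39601000 reads in control and 44145000 to 60917000 in MaeaCsf1r-Cre libraries, so that depth and group could not be told apart. The targeted gene *Maea* was at 108, 116 and 123 CPM in control and 76.9, 88.6 and 101 CPM in MaeaCsf1r-Cre replicates 1 to 3. It was lower in each MaeaCsf1r-Cre library, in values that do not separate the deleted exons. *Maea* did not pass the test either, with a log2 fold change of -0.39 (SE 0.13). For *Maea* limma's adjusted p was 0.967, or 0.218 under the replicate block. All 10 HSC markers examined were expressed enough to be tested, and their summed level was 1240 to 2073 CPM in control and 836 to 1517 CPM in MaeaCsf1r-Cre libraries. The summed level of 10 macrophage markers was 33.3 to 72.5 CPM in control and 5.73 to 58.6 CPM in MaeaCsf1r-Cre libraries. By group mean 7 of 7 tested were lower, beside 7895 of all 12955 genes tested. The groups did not overlap for *C1qa*, *C1qb* and *C1qc*, each lower, beside 6.06% of all genes tested in that direction. They overlapped for the rest of the tested macrophage markers. In MaeaCsf1r-Cre replicates 1 and 2 *Adgre1*, *Cd5l*, *Mertk* and *C1qa* were listed at 0, as was *Adgre1* in control replicate 2. Among them only *C1qa* was expressed enough to be tested. In MaeaCsf1r-Cre replicate 3, by contrast, *Mrc1* and *Vcam1* were above each control library. The macrophage markers named here were chosen after their values were seen. Erythroid markers summed to 804 to 3838 CPM in control and 1615 to 4129 CPM in MaeaCsf1r-Cre libraries. Of these 4 of 6 tested were higher, beside 39.1% of all genes tested, with a median log2 fold change of 0.45. B cell markers summed to at most 28.0 CPM in any library. In such bulk samples fewer cells of a type and less RNA per cell cannot be told apart.

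**Figure D1:**
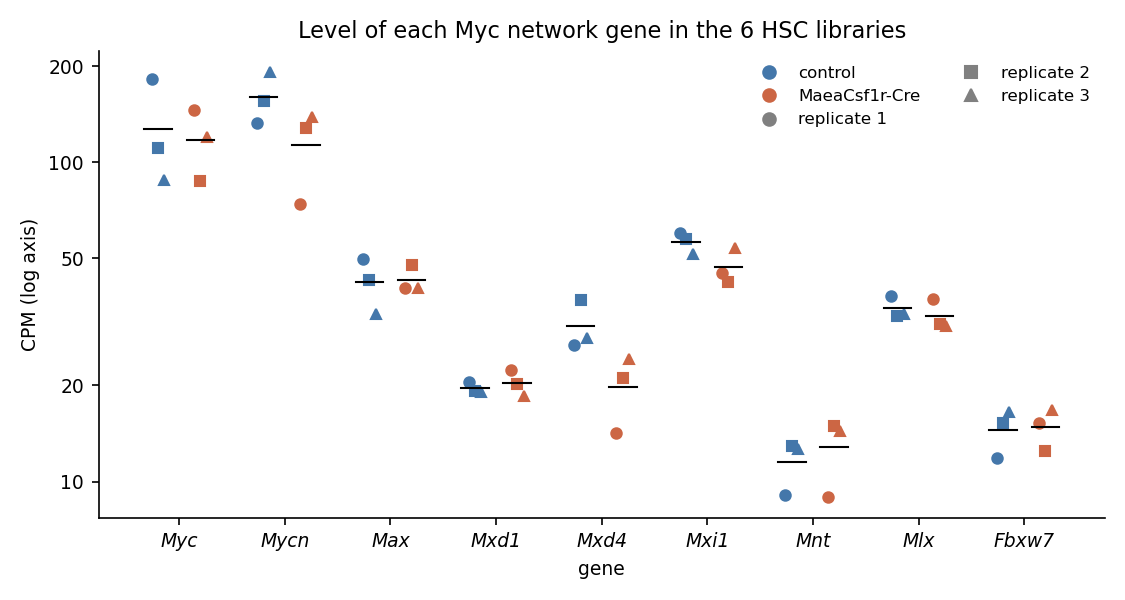
CPM on a log axis of the 9 tested network genes in the 3 control (blue) and 3 MaeaCsf1r-Cre (orange) HSC libraries, with the symbol giving the replicate number and a bar the group mean. The groups overlap for each gene except *Mxd4*, and replicate 1 has the highest *Myc* and the lowest *Mycn* in both groups.

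Among the activating members, *Myc* on chromosome 15 (GRCm38, 61985391 to 61990374, plus strand) was at 182, 111 and 88.2 CPM in control replicates 1, 2 and 3. It was at 145, 87.4 and 119.7 CPM in MaeaCsf1r-Cre replicates 1, 2 and 3. The groups overlapped throughout, and in each group replicate 1 was the highest library. The means were 127 ± 48.9 CPM in control and 117 ± 29.1 CPM in MaeaCsf1r-Cre HSCs (SD, n = 3 per group), or a log2 fold change of -0.07 (SE 0.28, limma's adjusted p = 0.981). The 95% confidence interval ran from -0.73 to 0.58, so the data leave room for a sizeable difference in either direction. Leaving out control replicate 1 turned the estimate to 0.22, and leaving out MaeaCsf1r-Cre replicate 2 turned it to 0.12.

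Markers of other blood lineages also differed between libraries. The summed level of 7 erythroid markers, most of it from *Car1*, a carbonic anhydrase of erythroid progenitors, was 3838, 1391 and 804 CPM in control replicates 1, 2 and 3. In MaeaCsf1r-Cre replicates 1, 2 and 3 the sum was 4129, 1615 and 1824 CPM. Within each group the libraries stood in the same order for the erythroid sum as for *Myc*, though over both groups the orders were not the same. The summed level of 10 neutrophil-lineage markers was 302, 195 and 76.8 CPM in control and 164, 138 and 76.0 CPM in MaeaCsf1r-Cre replicates 1, 2 and 3, and *Mmp8* was listed at 0. Within that list *Elane* and *Mpo*, granule protein genes, were highest in replicate 1 of both groups. *Prtn3*, another granule protease, was not, at 73.8, 86.6 and 48.9 CPM in control and 41.8, 72.6 and 71.5 CPM in MaeaCsf1r-Cre replicates 1, 2 and 3. The part of erythroid or granulocyte precursors in the spread of *Myc* was not tested. These markers were compared with *Myc* after the values were seen.

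*Mycn*, the paralogue first known from neuroblastoma, lies on chromosome 12 (12936093 to 12941914, minus strand). It was at 133, 156 and 192 CPM in the 3 controls and at 74.1, 128 and 138 CPM in MaeaCsf1r-Cre replicates 1, 2 and 3. Each MaeaCsf1r-Cre library was below its same-numbered control, though the groups overlapped, since MaeaCsf1r-Cre replicate 3 was above control replicate 1. The means were 160.4 ± 29.5 and 114 ± 34.5 CPM (SD, n = 3 per group), or a log2 fold change of -0.53 (SE 0.25, limma's adjusted p = 0.967, or 0.217 under the replicate block). The 95% confidence interval was -1.10 to 0.04. Without MaeaCsf1r-Cre replicate 1, which was the deepest library, the log2 fold change was -0.25.

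*Mycl*, the third paralogue, on chromosome 4 (122995652 to 123002485, plus strand), was near absent. It was listed at 0 in 4 of the 6 libraries, at 0.0292 CPM in control replicate 3 and at 0.158 CPM in MaeaCsf1r-Cre replicate 3. The first of these is 1 read and the second 7 reads, and 3 reads, the smallest signal counted, lie at 0.0492 to 0.0910 CPM, which allows for counting error alone. *Mycl* was thus above that limit in 1 library, and no fold change was computed.

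Divided by the length of the merged exons, *Myc* and *Mycn* stood at the same height. In control HSCs *Myc* was at 46.7 ± 18.0 and *Mycn* at 48.7 ± 8.96 CPM per kb (SD, n = 3). In MaeaCsf1r-Cre HSCs the levels per kb were 43.2 ± 10.7 for *Myc* and 34.5 ± 10.5 for *Mycn* (SD, n = 3). In both groups the paralogues differed by less than the larger SD. The share of *Mycn* in their sum was 37.7, 53.7 and 64.2% in the control replicates. It was 29.6, 54.8 and 48.8% in MaeaCsf1r-Cre replicates 1, 2 and 3. Control libraries with less *Myc* had more *Mycn*, and in MaeaCsf1r-Cre HSCs replicate 1 likewise paired the highest *Myc* with the lowest *Mycn*. Their summed level per kb was 107, 88.1 and 90.7 in control and 76.0, 71.1 and 86.0 in MaeaCsf1r-Cre replicates 1, 2 and 3. This sum, examined after the values were seen and given with no test, was lower in each MaeaCsf1r-Cre library than in each control library, though control replicate 2 and MaeaCsf1r-Cre replicate 3 were close.

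**Figure D2:**
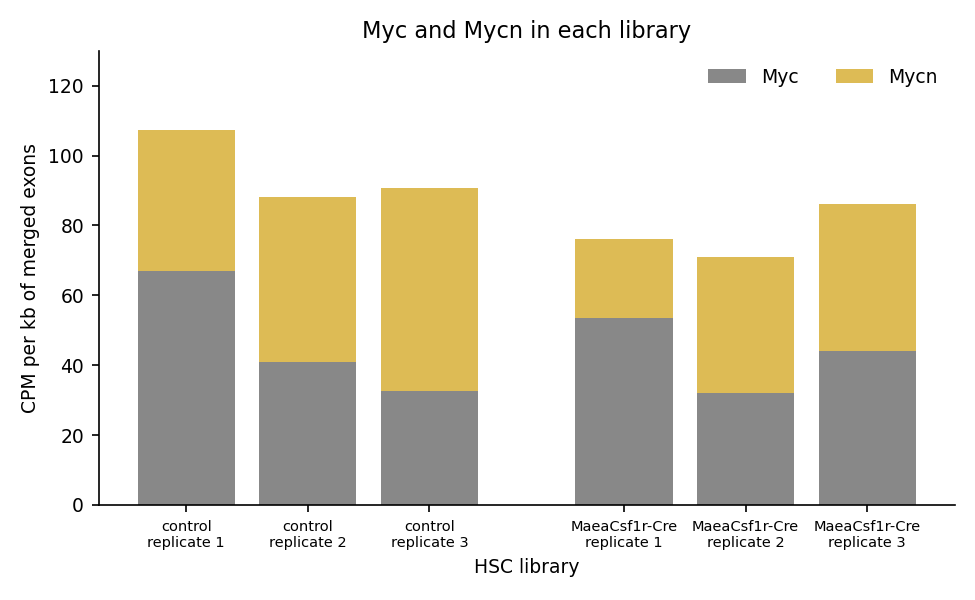
Stacked bars of *Myc* (grey) and *Mycn* (yellow) in CPM per kb of merged exons, 1 bar for each of the 6 HSC libraries, from 0. *Mycn* makes up 29.6 to 64.2% of a bar, and the control bars, at 88.1 to 107, are taller than the MaeaCsf1r-Cre bars, at 71.1 to 86.0.

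The shared partner *Max*, on chromosome 12 (76937269 to 76962201, minus strand), was at 49.9, 42.8 and 33.6 CPM in control and 40.4, 47.8 and 40.4 CPM in MaeaCsf1r-Cre replicates 1, 2 and 3. The MaeaCsf1r-Cre values lay inside the control range. Its log2 fold change was 0.04 (SE 0.17, 95% confidence interval -0.36 to 0.44), and it was -0.11 without control replicate 3 and -0.04 without MaeaCsf1r-Cre replicate 2. Per kb of merged exons *Max* was at 11.7 ± 2.27 in control and 11.9 ± 1.18 in MaeaCsf1r-Cre HSCs (SD, n = 3 each), well under the level of *Myc* or *Mycn*.

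Among the repressing members, *Mxd4* encodes a Max partner associated with cells that have left the cycle. It lies on chromosome 5 (34173883 to 34187720, minus strand). It was at 26.7, 37.2 and 28.1 CPM in the 3 controls and at 14.2, 21.0 and 24.2 CPM in MaeaCsf1r-Cre replicates 1, 2 and 3. *Mxd4* was the 1 member of the 9 whose groups did not overlap, where 8.55% of all genes tested did not overlap with 6.06% apart in the lower and 2.49% in the higher direction. The means were 30.7 ± 5.67 and 19.8 ± 5.12 CPM (SD, n = 3 per group). Its log2 fold change was -0.62 (SE 0.23, 95% confidence interval -1.15 to -0.10), where limma's adjusted p = 0.967 without and 0.230 with a replicate block. It ranged from -0.78 to -0.41 over the fits that each left out 1 library, and was weakest without MaeaCsf1r-Cre replicate 1.

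The level of *Mxd4* followed the HSC markers from library to library. In control replicates 1, 2 and 3 the summed CPM of the 10 markers was 1240, 2073 and 1578, and in MaeaCsf1r-Cre replicates 1, 2 and 3 it was 836, 1224 and 1517. Within each group the order of the libraries was the same for *Mxd4* as for the marker sum. Control replicate 1 and MaeaCsf1r-Cre replicate 2 were close in markers, and *Mxd4* was at 26.7 and 21.0 CPM there. Control replicate 3 and MaeaCsf1r-Cre replicate 3 were also close, with *Mxd4* at 28.1 and 24.2 CPM. The part of the HSC marker level in the difference of *Mxd4* was not tested. This set of markers was compared with *Mxd4* after the values were seen.

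**Figure D3:**
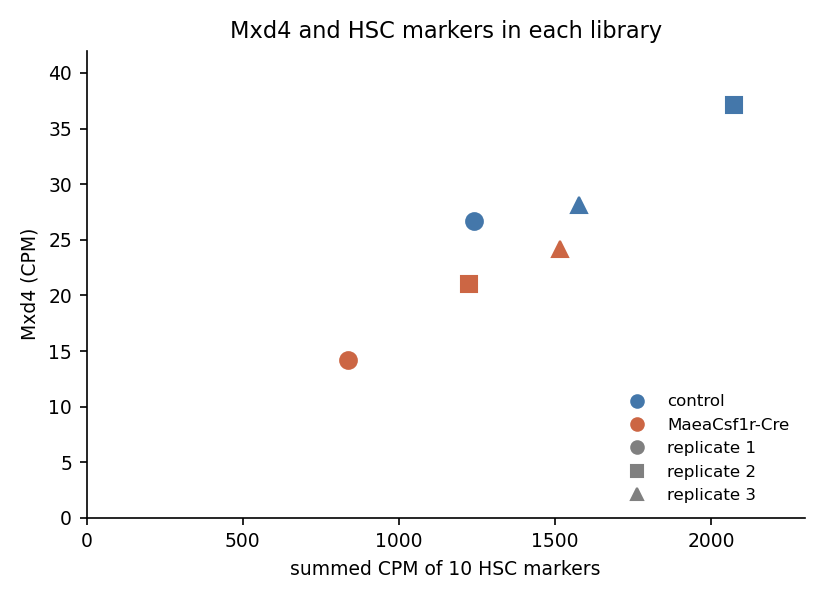
*Mxd4* in CPM against the summed CPM of 10 HSC markers, 1 point for each of the 6 libraries (blue control, orange MaeaCsf1r-Cre, symbol by replicate number). MaeaCsf1r-Cre replicate 1 is lowest on both axes, at 836 and 14.2 CPM, and control replicate 2 highest, at 2073 and 37.2 CPM.

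*Mxd4* lies 801 kb beyond the end of *Maea* on the same chromosome. Of the 21 other genes tested within 1 Mb of *Maea*, 13 were lower and 8 higher in MaeaCsf1r-Cre HSCs, with a median log2 fold change of -0.06, the same as over all genes tested. The groups did not overlap for 3 of them, *Mxd4*, *Prr14l* and *Fgfr3*, each lower, beside 6.06% of all genes tested in that direction. *Mxd4* had the second lowest log2 fold change after *Yes1*. Its nearest tested neighbours in this region, *Haus3* and *Rnf4*, had log2 fold changes of -0.08 (SE 0.15) and -0.04 (SE 0.11). An antisense gene that overlaps exons of *Mxd4* was at no more than 1e-06 CPM in any library. These neighbours were named after their values were seen.

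*Mxi1*, on chromosome 19 (53310518 to 53375810, plus strand), encodes another Max partner of the Mxd family and was the most abundant repressing member. It was at 59.9, 57.7 and 51.6 CPM in control and at 45.0, 42.3 and 54.0 CPM in MaeaCsf1r-Cre replicates 1, 2 and 3. MaeaCsf1r-Cre replicates 1 and 2 were below each control library, and replicate 3 was within the control range. The log2 fold change was -0.26 (SE 0.14, 95% confidence interval -0.59 to 0.07, limma's adjusted p = 0.967, or 0.423 under the replicate block). It was -0.13 after correction for exon length. A gene on the opposite strand that shares exon sequence with *Mxi1* was at no more than 0.679 CPM.

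*Mxd1*, the first of the family to be described and known for its rise in maturing myeloid cells, lies on chromosome 6 (86647042 to 86669161, minus strand). It was the steadiest member. It was at 20.5, 19.2 and 19.1 CPM in control and at 22.4, 20.2 and 18.5 CPM in MaeaCsf1r-Cre replicates 1, 2 and 3. The highest library was 1.21 times the lowest. The difference on log2 was 0.05 (SE 0.15, 95% confidence interval -0.30 to 0.39), and -0.02 without MaeaCsf1r-Cre replicate 1.

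*Mnt*, a widely expressed Max partner that opposes Myc, is on chromosome 11 (74830920 to 74845725, plus strand). It was at 9.07, 12.9 and 12.7 CPM in control and at 8.98, 14.97 and 14.5 CPM in MaeaCsf1r-Cre replicates 1, 2 and 3. Replicate 1, where *Myc* was highest, had the lowest *Mnt* in both groups. Its log2 fold change was 0.12 (SE 0.24, 95% confidence interval -0.44 to 0.69), and it was -0.03 without control replicate 1.

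The summed level of *Myc*, *Mycn* and *Mycl* per kb was set against that of *Mxd1*, *Mxd4*, *Mxi1* and *Mnt* in each library. The activating sum was 95.4 ± 10.5 and the repressing sum 17.2 ± 1.05 CPM per kb in control HSCs (SD, n = 3). In MaeaCsf1r-Cre HSCs they were 77.7 ± 7.66 and 14.9 ± 1.57 CPM per kb (SD, n = 3). The log2 ratio was 2.68, 2.26 and 2.47 in the control replicates and 2.51, 2.27 and 2.38 in MaeaCsf1r-Cre replicates 1, 2 and 3. The groups overlapped, and the mean difference of -0.09 was smaller than either SD, which were 0.21 and 0.12. With *Myc* alone as the activating member the difference was 0.13, in the other direction, between means of 1.38 ± 0.54 and 1.51 ± 0.45 (SD, n = 3 each). A ratio over chosen genes was given no test.

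*Mlx*, on chromosome 11 (101087277 to 101092207, plus strand), was at 38.1, 33.0 and 33.6 CPM in control and 37.4, 31.3 and 30.6 CPM in MaeaCsf1r-Cre replicates 1, 2 and 3. Each MaeaCsf1r-Cre library was below its same-numbered control, by 0.03, 0.08 and 0.13 on the log2(CPM + 1) scale, and the groups overlapped. On log2 it differed by -0.08 (SE 0.14, 95% confidence interval -0.41 to 0.26). Exons of *Psmc3ip* on the opposite strand overlap those of *Mlx*, and *Psmc3ip* was at 12.6 to 22.2 CPM, so that reads of the pair may be shared.

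*Fbxw7*, on chromosome 3 (84815268 to 84979198, plus strand), was at 11.9, 15.2 and 16.6 CPM in control and 15.3, 12.5 and 16.7 CPM in MaeaCsf1r-Cre replicates 1, 2 and 3. The ranges were nearly the same. On log2 the difference was 0.03 (SE 0.20, 95% confidence interval -0.42 to 0.48), and leaving out control replicate 1 or MaeaCsf1r-Cre replicate 3 turned it to -0.10 or -0.06. These are transcript levels and do not measure the activity of the ligase or the amount of Myc protein.

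**Figure D4:**
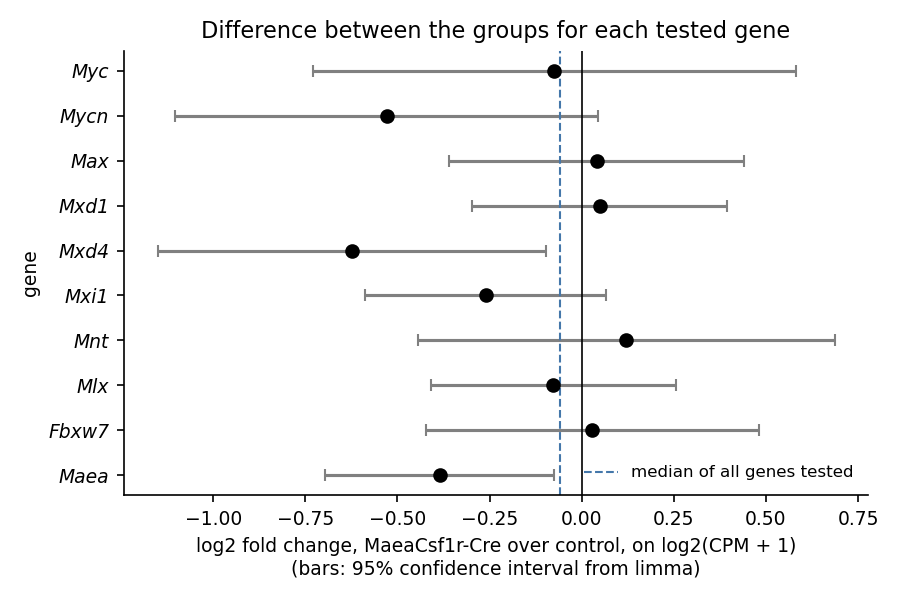
Log2 fold change of MaeaCsf1r-Cre over control HSCs on log2(CPM + 1) for the 9 tested members and *Maea*, with 95% confidence intervals from limma (3 libraries a group). The solid line is 0 and the dashed line the median of all 12955 genes tested, -0.06, and the intervals of *Mxd4* (-1.15 to -0.10) and *Maea* (-0.70 to -0.07) are the ones that leave out 0 before adjustment.

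By level per kb of merged exons over all 6 libraries, the order was *Myc* (45.0), *Mycn* (41.6), *Mlx* (17.0), *Max* (11.8), *Mxi1* (7.59), *Mxd4* (2.97), *Mxd1* (2.83), *Mnt* (2.63), *Fbxw7* (2.09) and *Mycl* (0.00772). *Myc* and *Mycn* did not differ beyond their spread, nor did *Mxd4*, *Mxd1* and *Mnt* among themselves in MaeaCsf1r-Cre HSCs, and the libraries of *Mnt* and *Fbxw7* overlapped. In control HSCs *Mxd4*, at 3.61 ± 0.669 CPM per kb, was above *Mxd1*, at 2.77 ± 0.112, while in MaeaCsf1r-Cre HSCs *Mxd4* was at 2.33 ± 0.604 and *Mxd1* at 2.88 ± 0.277 (SD, n = 3 each). Using the longest coding transcript in place of merged exons, a choice made after the data were seen, *Max* came before *Mlx* and *Fbxw7* before *Mnt*, with the other places unchanged. The order of *Mxd4* and *Mxd1* in MaeaCsf1r-Cre HSCs also depends on this choice. Merged exons span 8.48 and 7.07 kb in these genes, and the longest coding transcripts 3.87 and 4.67 kb. Per kb of that transcript *Mxd4* was at 6.52 and *Mxd1* at 4.29 CPM over all 6 libraries.

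The genes whose centred log2(CPM + 1) values lay closest to those of *Myc* over the 6 libraries were *4933431E20Rik*, *Pik3r2* and *Slc29a1*. Their root mean square distances were 0.0851, 0.0885 and 0.0982 on the log2 scale, where the SD of *Myc* itself was 0.41, out of 9215 genes with a mean of at least 10 CPM. *Pik3r2* was at 97.2, 59.8 and 50.1 CPM in control and 69.6, 45.7 and 69.4 CPM in MaeaCsf1r-Cre replicates 1, 2 and 3. *Cep63*, *Rwdd4a* and *Emp3* lay closest to *Fbxw7*, at distances of 0.0246, 0.0337 and 0.0420. Closeness over so few libraries is a description, and all the points share 6 libraries and their depth.

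The remaining partners of Max and Mlx were examined next. *Mga*, a large Max partner that works with a Polycomb-type repressor, was at 47.7, 54.4 and 65.8 CPM in control and 39.3, 39.7 and 45.6 CPM in MaeaCsf1r-Cre replicates 1, 2 and 3. Its groups did not overlap, beside 6.06% of all genes tested that were apart in the lower direction. The log2 fold change was -0.41 (SE 0.15, limma's adjusted p = 0.967, and 0.226 with the replicate block), and it was -0.22 after correction for exon length. *Mlxip*, a glucose-sensing partner of Mlx, differed on log2 by -0.14 (SE 0.15), which the length correction brought to 0.0065. *Mxd3* had 0.06 (SE 0.23). *Mlxipl*, the liver form of the Mlx partner, did not pass the filter on low values.

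The corepressor that Mxd proteins recruit showed no gene past an unadjusted p of 0.05. Of its 12 genes, all tested, 10 were lower and 2 higher in MaeaCsf1r-Cre HSCs, with a median log2 fold change of -0.08 beside -0.06 over all genes, of which 39.1% were higher. After correction for exon length the median of the list was 0.03, and that of all genes tested was also 0.03. The smallest p was that of *Arid4a*, a Sin3-associated protein, at 29.9 ± 4.65 and 23.6 ± 3.37 CPM (SD, n = 3 each), followed by *Arid4b* and the deacetylase *Hdac2*, with log2 fold changes of -0.16 and -0.11.

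Among 14 cofactors of Myc, 8 were lower and 6 higher, with a median of -0.01 and 0 at an unadjusted p under 0.05. After correction for exon length the median was 0.08, beside 0.03 over all genes tested. *Ep300*, an acetyltransferase, was the 1 gene of this list whose groups did not overlap, beside 8.55% of all genes, at 79.3 ± 10.4 CPM in control and 65.0 ± 6.61 CPM in MaeaCsf1r-Cre HSCs (SD, n = 3 each). *Ccnt1*, the cyclin of the elongation kinase, had a log2 fold change of -0.16, and *Ruvbl2*, a helicase bound by Myc, of 0.15 (SEs 0.13 and 0.12).

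Genes that set the lifetime of Myc protein were likewise mixed, with 8 of 14 lower, 6 higher and a median of -0.05. After correction for exon length the median was 0.05, beside 0.03 over all genes tested. None had an unadjusted p under 0.05, and 2 did with the replicate block, *Ppp2r5a* and *Trim32*, both lower, beside 13.9% of all genes under the block (10.8% lower). *Ppp2r5a*, a regulatory subunit of the phosphatase that acts on Myc, was at 106 ± 13.6 and 83.3 ± 10.5 CPM (SD, n = 3 each). *Trim32*, a ubiquitin ligase, was at 25.3 ± 3.58 and 18.9 ± 3.57 CPM (SD, n = 3 each). The groups of *Trim32* did not overlap, beside 6.06% of all genes tested apart in the lower direction. The log2 fold change of *Trim32* was -0.41, or -0.26 without MaeaCsf1r-Cre replicate 1. *Skp2*, the receptor of another SCF ligase that acts on Myc, was at -0.29 on the log2 fold scale (SE 0.17).

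Of 12 other genes whose proteins Fbxw7 targets, 11 were tested, with 8 lower, 3 higher and a median of -0.19. The median was -0.06 without MaeaCsf1r-Cre replicate 1, beside -0.05 over all genes tested. There were 3 with an unadjusted p under 0.05, all lower, against 3.19% of all genes in that direction. *Cebpa*, a myeloid transcription factor, was at 6.19, 2.70 and 3.21 CPM in control and 0.722, 1.79 and 1.51 CPM in MaeaCsf1r-Cre replicates 1, 2 and 3, a log2 fold change of -1.07 (SE 0.32). *Notch1* differed on log2 by -0.92 (SE 0.37), and by -0.55 without MaeaCsf1r-Cre replicate 1. *Hif1a* differed by -0.58 (SE 0.22). The limma adjusted p was 0.967 for each of the 3, and 0.266, 0.221 and 0.141 with the replicate block. These are transcript levels, whereas Fbxw7 acts on the proteins.

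The genes that Myc is known to activate, for nucleolar, nucleotide and glycolytic functions, were higher by group mean in 26 of 33, with a median log2 fold change of 0.10, beside -0.06 over all genes. None had an unadjusted p under 0.05 in the fit without the block, and 1 did with it, *Nolc1*, beside 13.9% of all genes. *Ncl*, the nucleolar protein nucleolin, was at 658, 548 and 606 CPM in control and 802, 548 and 568 CPM in MaeaCsf1r-Cre replicates 1, 2 and 3. The high value was that of MaeaCsf1r-Cre replicate 1. Without that library the median of the list was -0.03, beside -0.05 over all genes tested. Over all the alternative fits the list median ranged from -0.03 to 0.17. *Slc3a2*, an amino acid transporter chain, was the 1 gene of the list whose groups did not overlap, beside 2.49% of all genes apart in the higher direction, at 128 ± 5.604 and 144 ± 4.13 CPM (SD, n = 3 each). *Shmt2*, a mitochondrial enzyme of serine metabolism, differed on log2 by 0.19 (SE 0.12) and *Ldha*, lactate dehydrogenase, by 0.23 (SE 0.16). *Ncl* and *Nolc1* were chosen after their values were seen.

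Of 7 genes that Myc is known to repress, 6 were tested, with 4 higher and 2 lower, a median of 0.02 and 0 at an unadjusted p under 0.05. Leaving out 1 library moved this median between -0.12 and 0.13. *Cdkn1a*, an inhibitor of cyclin-dependent kinases, was at 4.35 ± 0.931 and 5.43 ± 1.57 CPM (SD, n = 3 each). *Cdkn1b*, its relative, was at 15.7 ± 2.55 and 14.0 ± 3.59 CPM (SD, n = 3 each), and *Gadd45a*, a stress-induced growth arrest gene, differed on log2 by -0.06 (SE 0.26).

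Targets of the Mlx branch did not move as one. *Txnip*, which restrains glucose uptake, was at 370, 555 and 280 CPM in control and 127, 309 and 311 CPM in MaeaCsf1r-Cre replicates 1, 2 and 3. *Arrdc4*, its relative, was at 33.7, 52.6 and 27.9 CPM in control and 17.1, 32.6 and 29.9 CPM in MaeaCsf1r-Cre replicates 1, 2 and 3. Both were lower in replicates 1 and 2 and higher in replicate 3 of the same number, with log2 fold changes of -0.74 (SE 0.38) and -0.51 (SE 0.30). Without MaeaCsf1r-Cre replicate 1 these were -0.31 and -0.23, and without control replicate 2 they were -0.48 and -0.25. *Pklr*, a pyruvate kinase, differed on log2 by 0.45 (SE 0.41), the opposite direction, and ranged from 0.13 without control replicate 3 to 0.89 without control replicate 1. None of the 3 had an unadjusted p under 0.05 without the replicate block. With it each did, beside 13.9% of all genes, and limma's adjusted p was 0.300, 0.326 and 0.336.

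**Figure D5:**
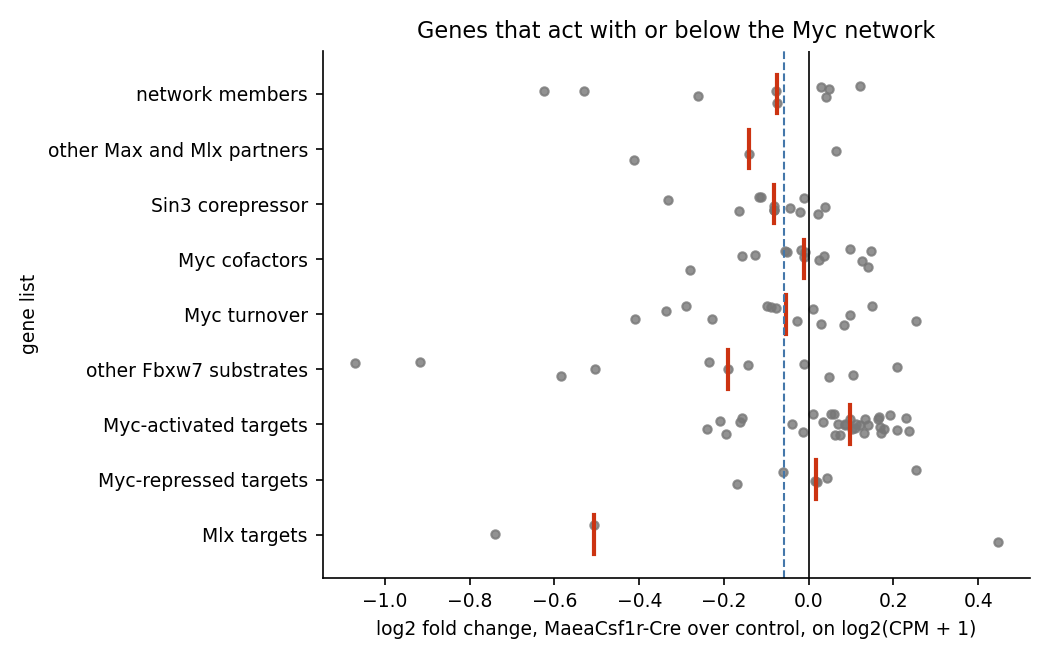
Log2 fold change of MaeaCsf1r-Cre over control HSCs on log2(CPM + 1) for each tested gene (grey points, spread vertically at random) of the network and of 8 lists of genes around it, with the list median in red, 0 as a solid line and the median of all genes tested as a dashed line. The Myc-activated targets have a median of 0.10 and the other Fbxw7 substrates one of -0.19, and no gene shown passed the adjusted test.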

How the data were processed

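Sorted HSCs gave cDNA by SMART-Seq v4, which was tagged by Nextera XT and sequenced single-end. The authors aligned reads to mm10 with STAR 2.5.3a, assigned them to Ensembl transcripts, and scaled the result in Partek Flow. The submitters' processing notes also name Trim Galore. The deposited table holds CPM in 1 column for each library, with 0.0001 added to each value, which was subtracted before levels were given. Of the values under 30 reads 70.6 to 72.3% lay within 0.01 of a whole read, so counts were not recovered and no count test was run. The kit does not mark strand.

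limma 3.58.1 (R 4.3.3) was fitted to log2(CPM + 1), with a mean-variance trend, to genes with at least 1 CPM in at least 3 libraries, two-sided, with a threshold of 0.05 on the adjusted p. Fold changes understate those of low genes. On simulated data with 200 genes changed 4-fold, the fit recovered 189 of them with 7 false calls. Those changes were larger than any seen in the members. The simulation therefore does not show whether differences of the members' size would be found.

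The replicate numbers come from the labels. Across genes, which are not independent replicates, same-numbered libraries deviated together from their group means (Pearson's r of 0.627, 0.523 and 0.397), so the number was also fitted as a block. Members, gene lists and tests were chosen with earlier results of these data known. Named genes were the members, *Maea*, up to 3 genes of the smallest p in each list and the nearest profiles of *Myc* and *Fbxw7*, with further names marked as chosen after their values. Positions and exon lengths are from GENCODE M21 (GRCm38), matched by symbol. Alternatives were another pseudocount, 2 filters, 2 scalings, no trend, the block, length correction by loess with a span of 0.5, and each library left out. Python 3.11.15 and matplotlib 3.10.9 were used.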

Additional observations from a re-analysis of the deposited data

How the results depend on the processing

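No member passed an adjusted p of 0.05 under any of the 15 alternatives, where the smallest adjusted p of *Mxd4* was 0.230 and that of *Mycn* 0.217, both with the replicate block, under which 0 members were called. *Mxd4*, *Mycn*, *Mxi1* and *Mlx* were lower in each fit. Over the fits that left out 1 library, *Myc* ranged from -0.30 to 0.22, *Max* from -0.11 to 0.17, *Mxd1* from -0.0189 to 0.11, *Mnt* from -0.0300 to 0.34, *Fbxw7* from -0.10 to 0.14, *Mxd3* from -0.12 to 0.21 and *Gadd45a* from -0.29 to 0.16 (log2 fold change), each changing sign. *Gadd45a* was at 0.0826 with quantile normalization. With the length correction, with and without the replicate block, *Mlxip* was at 0.0065 and *Arid4b* at 0.0336, each reversed. That correction moved the median log2 fold change of all genes tested from -0.06 to 0.03. The count over all genes, 1, was 10 with no filter, 0 at a CPM of 10 (302 by unadjusted p), 12 with block and length correction combined, and 0 to 3 when 1 library was left out: 0 without control replicate 2 or 3, and 3 without MaeaCsf1r-Cre replicate 3. It stayed at 1 with the replicate block alone. The cause was not tested. The log2 ratio of activating to repressing members differed by 0.13 with *Myc* alone, and by -0.19 to 0.02 when 1 library was left out. The 3 libraries a group limit precision: the 95% confidence interval of *Myc* spans -0.73 to 0.58, and *Mycl* was at or above 3 reads in 1 library. Depth and genotype cannot be told apart.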
